A study of Mus musculus with 18 samples.

Results

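The genes described here were Mef2a, Mef2c and Mef2d of the Mef2 family and the class IIa histone deacetylases Hdac4, Hdac7 and Hdac9. They were chosen by name. Of the 7 genes named, 6 had counts among the 46725 genes in the files, and Hdac5 was not analysed here. Reads were counted in 274 exon bins of these 6 genes, a bin being a stretch of exon between neighbouring exon boundaries of a gene. In build GRCm38, Mef2a (ENSMUSG00000030557.17) lies at chr7:67231163-67372858 on the minus strand, Mef2c (ENSMUSG00000005583.16) at chr13:83504034-83667080 on the plus strand and Mef2d (ENSMUSG00000001419.17) at chr3:88142372-88172086 on the plus strand. Hdac4 (ENSMUSG00000026313.16) lies at chr1:91928779-92195699 and Hdac9 (ENSMUSG00000004698.10) at chr12:34047580-34917095, both on the minus strand, and Hdac7 (ENSMUSG00000022475.18) lies on chromosome 15.

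MEF2 proteins are DNA-binding transcription factors that switch on muscle genes together with the myogenic regulators. Class IIa deacetylases bind MEF2 on DNA and keep its targets silent until calcium- and stress-activated kinases phosphorylate them, after which 14-3-3 proteins carry them out of the nucleus. The Mef2 transcripts are themselves spliced in alternative ways: each gene has a pair of neighbouring exons of which a transcript takes one or the other, and a short cassette exon further downstream. In Mef2d the downstream exon of the pair is known as the one that differentiating muscle cells take up.

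The study compared wild-type FVB mice (WT), untreated HSA-LR mice and HSA-LR mice given Pip6a-PMO into a vein, all on the FVB strain and 20 weeks old. HSA-LR mice are 1 transgenic line with a human skeletal actin gene that carries a long CTG repeat, so the CUG-repeat RNA is made where the actin promoter is active, in skeletal muscle fibers. The transgene itself was not analysed here. Pip6a-PMO is a morpholino oligonucleotide against the CUG repeat, joined to a cell-penetrating peptide. WT and untreated HSA-LR mice were labelled untreated, and the treatment protocol names saline as the other injection. Gastrocnemius and quadriceps muscles were sequenced from 3 mice per group, which gave 18 libraries of polyA-selected RNA and 3 libraries per group and muscle.

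The libraries held between 98916844 and 143135976 counts over all bins. Reads of the treated gastrocnemius of mouse 3 leaned toward the 3' end of genes, with a median log2 ratio of 5' to 3' counts of -0.49 over 2732 genes against -0.21 to -0.097 in the other 17 libraries. Y-linked genes went against the sex label of 2 WT mice: their summed level was 154.5 and 187.6 CPM (counts scaled to the TMM-adjusted size of the library) in WT mouse 2, labelled female, and 1.14 and 1.43 CPM in WT mouse 3, labelled male. These labels define no group. Fast fiber markers summed to between 153280 and 271380 CPM in the 18 libraries, as the tissue label has it.

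The exons that the results turn on are among the upstream and downstream exons of the mutually exclusive pairs, shown here because the 2 exons of a pair compete and their sequences differ. They are given 5' to 3' in lower case from the GENCODE M21 transcripts (genome build GRCm38). Capitals mark the words TGCT and TGCC or, with C as the leading base, CGCT and CGCC, the core of the motifs that muscleblind proteins bind, searched on the sense strand with overlaps counted. The Mef2d pair lies on the plus strand at chr3:88158034-88158171 and chr3:88158221-88158355.
Mef2d upstream: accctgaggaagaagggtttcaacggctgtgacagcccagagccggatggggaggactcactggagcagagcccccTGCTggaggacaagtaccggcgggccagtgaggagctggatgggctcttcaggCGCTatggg
Mef2d downstream: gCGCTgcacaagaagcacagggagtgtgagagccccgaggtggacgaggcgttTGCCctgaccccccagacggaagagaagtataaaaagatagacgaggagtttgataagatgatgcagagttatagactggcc
The Mef2c pair lies on the plus strand at chr13:83625265-83625408 and chr13:83625470-83625607.
Mef2c upstream: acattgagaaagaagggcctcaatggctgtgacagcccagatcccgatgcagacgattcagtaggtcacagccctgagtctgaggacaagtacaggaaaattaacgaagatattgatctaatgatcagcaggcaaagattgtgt
Mef2c downstream: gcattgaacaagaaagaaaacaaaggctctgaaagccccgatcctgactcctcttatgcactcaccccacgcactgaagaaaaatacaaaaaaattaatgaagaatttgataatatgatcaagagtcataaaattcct
The upstream exon of the Mef2a pair lies on the minus strand at chr7:67268269-67268400.
Mef2a upstream: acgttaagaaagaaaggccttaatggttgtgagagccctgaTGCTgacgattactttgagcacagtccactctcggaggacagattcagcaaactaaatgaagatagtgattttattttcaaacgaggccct

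The 5 exons shown were coding, each with a length divisible by 3, and ran from 132 to 144 bases. The upstream exons of Mef2a and Mef2c shared 66.0% of aligned bases, those of Mef2c and Mef2d 65.8% and those of Mef2a and Mef2d 57.4%. The downstream exons of Mef2c and Mef2d shared 65.9%, whereas the 2 exons of Mef2d shared 55.2% and those of Mef2c 64.8%. Both Mef2d exons held 2 of the searched words, the Mef2a upstream exon held 1, and neither Mef2c exon held any. Among 13682 internal coding exons of 132 to 144 bases, 84.5% held at least 1 word and 59.6% at least 2, so none of the 5 exons was rich in them. Introns were not searched.

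The Mef2d pair switched in HSA-LR muscle and switched back with treatment. The share of the upstream exon, in counts per base of the pair, was 21.3%, 21.1% and 15.5% in the WT gastrocnemius of mice 1, 2 and 3. It was 49.8%, 58.0% and 45.4% in HSA-LR gastrocnemius. In treated gastrocnemius it was 15.9%, 17.1% and 21.003%. Every HSA-LR gastrocnemius was above every WT and every treated one, and the treated and WT values overlapped. The counts behind these shares were 332, 361 and 272 for the upstream and 1199, 1323 and 1448 for the downstream exon in WT gastrocnemius, and 823, 903 and 613 against 810, 639 and 722 in HSA-LR gastrocnemius. As a share of all Mef2d counts, the upstream exon went from 0.855% in WT to 2.24% in HSA-LR and 0.762% in treated gastrocnemius, and the downstream exon from 3.52% to 2.10% and 3.44%, so that in HSA-LR the upstream exon gained about what the downstream exon lost.

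The quadriceps of the same mice gave nearly the same Mef2d values. WT quadriceps held 21.045%, 20.538% and 15.566% of the upstream exon. HSA-LR quadriceps held 54.3%, 53.5% and 48.2%, and treated quadriceps 16.9%, 17.4% and 17.2%. The group means were 19.05% ± 3.03 in WT, 52.0% ± 3.29 in HSA-LR and 17.2% ± 0.249 in treated quadriceps (SD, n = 3), a difference of 32.9 percentage points between HSA-LR and WT. In gastrocnemius they were 19.3% ± 3.27, 51.1% ± 6.42 and 17.99% ± 2.67 (SD, n = 3), a difference of 31.8 percentage points.

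With 3 mice against 3, the 2-sided exact permutation test cannot give a P below 0.1, and it gave 0.1 for HSA-LR against WT and for treated against HSA-LR in both muscles. The treated mean lay at or beyond the WT mean, with 104.1% of the HSA-LR difference gone in gastrocnemius and 105.7% in quadriceps, and treated against WT gave an exact permutation P of 0.8 and 0.4. As a share of all Mef2d counts, treated quadriceps lay above WT without overlap for the downstream exon (3.84% against 3.58%). The same held for both exons together (4.66% against 4.45%), each with an exact permutation P of 0.1.

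**Figure D1:**
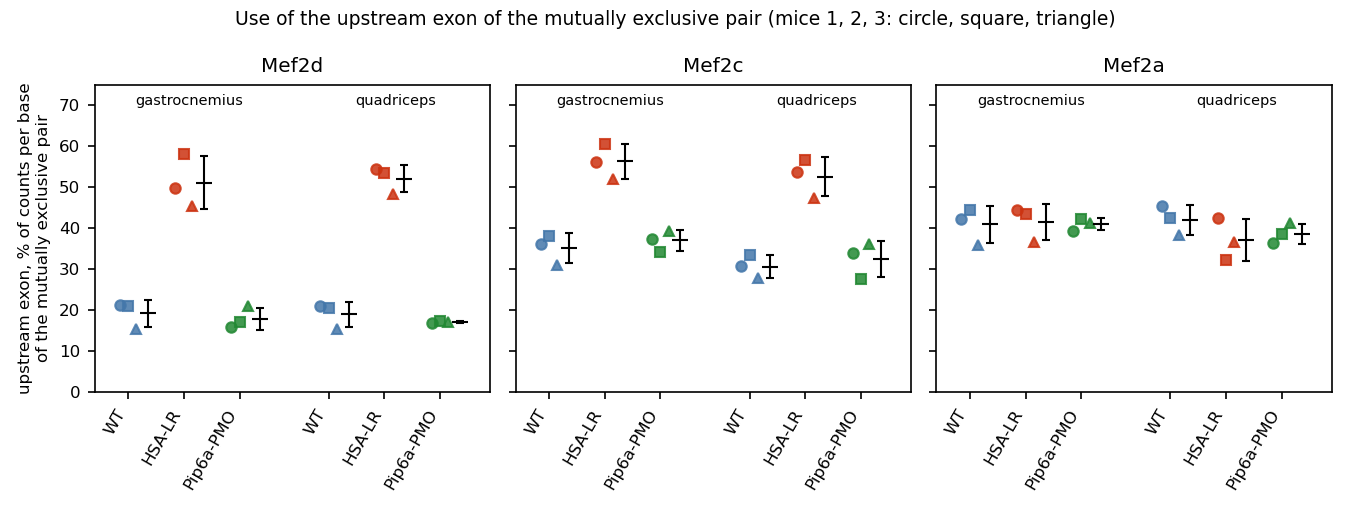
Share of the upstream exon among counts per base of the mutually exclusive pair (y axis, percent) for Mef2d, Mef2c and Mef2a in WT, HSA-LR and Pip6a-PMO-treated gastrocnemius and quadriceps; symbols are mice 1, 2 and 3, and the black bar is the mean with its SD. HSA-LR libraries stand at 45.4% to 58.0% for Mef2d and at 47.3% to 60.6% for Mef2c, above all WT and treated libraries, and the Mef2a groups overlap.

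The Mef2c pair moved in the same direction from a higher starting point. Its upstream exon took 36.2%, 38.2% and 31.0% of the pair in WT gastrocnemius, 56.2%, 60.6% and 52.0% in HSA-LR gastrocnemius and 37.4%, 34.3% and 39.3% in treated gastrocnemius. In quadriceps it took 30.7%, 33.4% and 27.9% in WT, 53.7%, 56.7% and 47.3% in HSA-LR and 33.9%, 27.6% and 36.1% in treated mice. HSA-LR libraries again stood apart from all others, and the treated and WT values overlapped in both muscles.

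Mef2c gained 21.1 percentage points of the upstream exon in HSA-LR gastrocnemius (56.3% ± 4.30 against 35.2% ± 3.69, SD, n = 3) and 21.9 in quadriceps (52.5% ± 4.78 against 30.7% ± 2.72, SD, n = 3). The exact permutation P was 0.1 in each, the smallest possible. Treated means were 37.0% ± 2.53 and 32.5% ± 4.39, with 91.2% and 91.4% of the difference gone, and treated against WT gave an exact permutation P of 0.6 in both muscles. The 2 Mef2d exons together made up 4.37% of the counts of the gene in WT and 4.34% in HSA-LR gastrocnemius, whereas the 2 Mef2c exons made up 4.94% and 6.35%. The Mef2c pair stood at 4.91% in treated gastrocnemius (4.84%, 5.89% and 4.01%, the last from the library with the 3' lean). In quadriceps its groups overlapped at 5.32% in WT, 6.04% in HSA-LR and 5.70% in treated mice. As a share of all Mef2c counts, the upstream exon rose from 1.79% in WT to 3.63% in HSA-LR gastrocnemius. The downstream exon stood at 3.15% and 2.72% there, and these values overlapped (exact permutation P = 0.2). In quadriceps the upstream exon rose from 1.69% to 3.25%. The downstream exon fell from 3.63% to 2.79%, without overlap (exact permutation P = 0.1).

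In Mef2a, whose pair has the same layout, the groups overlapped. Its upstream exon held between 35.9% and 44.5% of the pair in WT gastrocnemius, between 36.6% and 44.5% in HSA-LR and between 39.3% and 42.2% in treated gastrocnemius. In quadriceps the ranges were 38.2% to 45.4%, 32.2% to 42.5% and 36.3% to 41.2%. HSA-LR minus WT was 0.614 percentage points in gastrocnemius and -4.95 in quadriceps, and the exact permutation P of HSA-LR against WT was 0.7 in gastrocnemius and 0.3 in quadriceps. The exons of the Mef2a pair together took up more of the gene in HSA-LR gastrocnemius, at 3.43% against 2.87% in WT and 2.84% in treated mice, without overlap (exact permutation P = 0.1), and in quadriceps the HSA-LR and WT values overlapped at 3.37% and 3.20%. In treated quadriceps the pair took up 3.75%, above all WT values (exact permutation P = 0.1). These values rest on fewer reads, since the upstream exon held between 86 and 273 counts per library.

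Across the genome the Mef2d upstream exon was among the bins with the smallest P. Bins were tested with edgeR's test of exon usage, which asks whether a bin changed relative to the other bins of its gene, with P adjusted by Benjamini-Hochberg over all bins of a muscle and called at an adjusted P under 0.1. The bin of this exon rose relative to the gene by 1.39 on the log2 scale in HSA-LR gastrocnemius (edgeR, adjusted P = 3.78e-10) and by 1.35 in quadriceps (edgeR, adjusted P = 7.3e-07), which ranked it 71 of 172719 and 80 of 172858 bins by P. After treatment it fell by 1.56 and 1.45 against HSA-LR (edgeR, adjusted P = 2.19e-12 and 8.35e-08), ranks 25 and 42. These calls held whichever of the 9 mice of a fit was left out.

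The downstream exon of Mef2d moved the other way. It fell by 0.74 in HSA-LR gastrocnemius (edgeR, adjusted P = 0.0193) and by 0.84 in quadriceps (edgeR, adjusted P = 0.0535). With treatment it rose by 0.74 and 0.94 (edgeR, adjusted P = 0.0456 and 0.0165). These smaller changes were not called in every fit without 1 mouse: the fall in HSA-LR was called in 6 of 9 such fits in gastrocnemius and in 3 of 9 in quadriceps, and the rise with treatment in 4 of 9 and 6 of 9.

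The Mef2c upstream exon is split into 4 bins that share reads, so they count as 1 observation. All 4 rose in HSA-LR gastrocnemius, by 0.96 to 1.05 (edgeR, adjusted P between 0.00026 and 0.00155), and in quadriceps, by 0.90 to 0.92 (edgeR, adjusted P between 0.0119 and 0.0157). Treatment lowered all 4 in gastrocnemius, by 0.93 to 1.0 (edgeR, adjusted P between 0.00149 and 0.00615). In quadriceps the values were -0.71 to -0.82 and 1 of the 4 was called, at an adjusted P of 0.0734 by edgeR. The quadriceps calls in HSA-LR were lost without HSA-LR mouse 2, WT mouse 1 or WT mouse 3, with the log2 change then at 0.77 or more. The calls with treatment were also lost in some fits without 1 mouse: in gastrocnemius 1 bin was called in 9 of 9 fits, 2 bins in 7 and 1 bin in 6, and the bin called in quadriceps was called in 3 of 9.

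**Figure D2:**
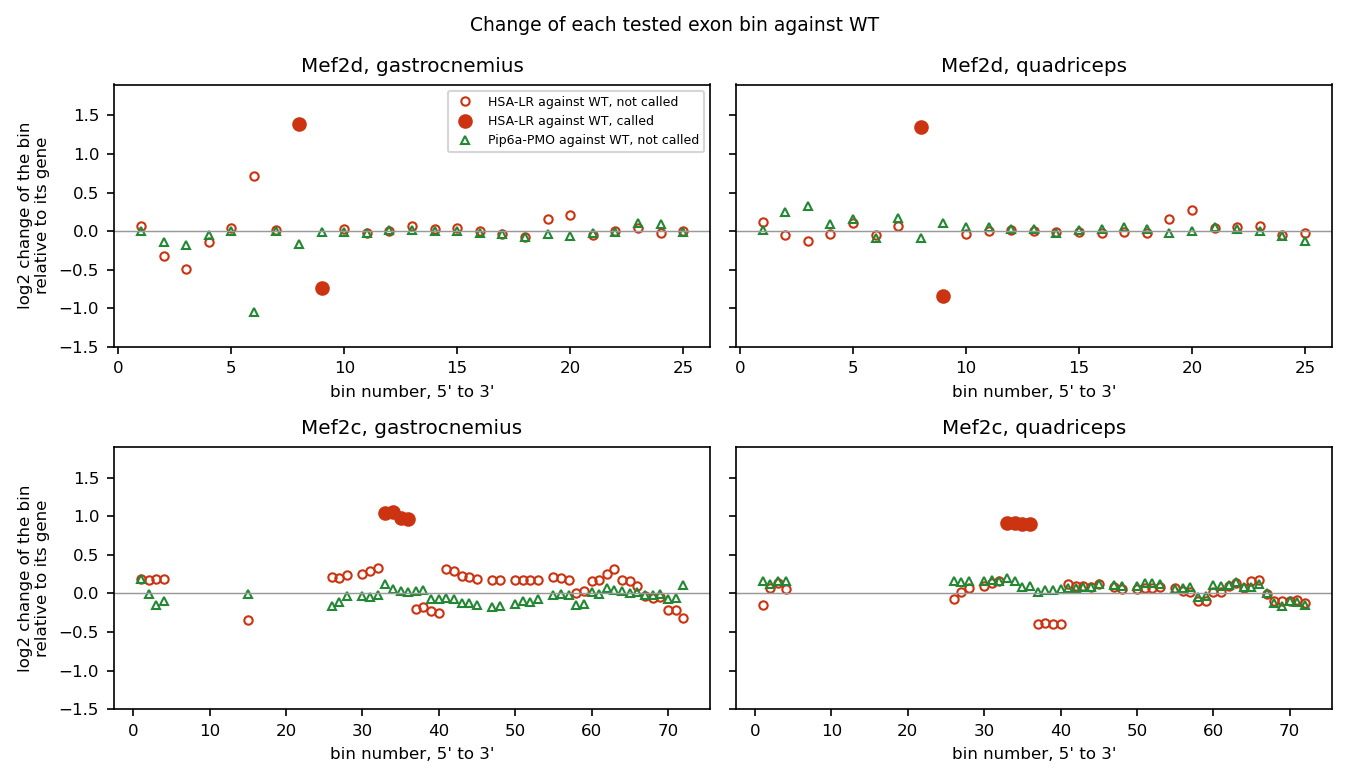
Log2 change of each tested bin relative to its gene (y axis) against bin number from 5' to 3' (x axis) in Mef2d and Mef2c, for HSA-LR against WT (circles) and Pip6a-PMO against WT (triangles); filled symbols passed an adjusted P of 0.1. In HSA-LR, bins 8 and 9 of Mef2d and bins 33 to 36 of Mef2c were called in both muscles, and no bin was called in treated mice against WT.

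Of the 274 bins, 190 were tested in each muscle. For HSA-LR against WT, 6 were called in gastrocnemius and 6 in quadriceps, where 0.819% and 0.284% of all bins were called, and all of them belonged to the Mef2d and Mef2c pairs. In each muscle 4 of these 6 lay in the Mef2c upstream exon, whose bins share reads and count as 1 observation. For treated against HSA-LR, 7 and 3 were called beside 0.309% and 0.168% of all bins, and 4 of the 7 were again those of the Mef2c upstream exon. For treated against WT, edgeR called 0 in both muscles beside 0.0654% and 0.0353% of all bins, 0 had an unadjusted P under 0.05, and limma called 0 as well.

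The 7th bin called in treated gastrocnemius lay in Hdac7, a deacetylase best known from thymocytes and endothelium. It held 9, 36 and 40 counts in WT, 20, 13 and 5 in HSA-LR and 55, 19 and 11 in treated gastrocnemius. These counts overlapped, whereas as a share of all Hdac7 counts the treated values (1.39%, 0.537% and 0.488%) lay above those of HSA-LR (0.437%, 0.334% and 0.143%), and the WT values (0.324%, 0.863% and 0.807%) overlapped with both. The log2 change of treated against HSA-LR was 1.43 (edgeR, adjusted P = 0.0895), it was called in 5 of the 9 fits without 1 mouse, and in quadriceps it was 0.67 and not called. No bin of Mef2a, Hdac4 or Hdac9 was called in any of the 6 comparisons.

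The short cassette exons did not follow the pairs. For Mef2d and Mef2a, cassette counts are given in percent of the mean count of the flanking bins, not divided by length. The 21-base cassette of Mef2d at chr3:88161781-88161801 stood at 53.7% ± 1.57 in WT gastrocnemius, 55.2% ± 1.01 in HSA-LR and 54.0% ± 1.45 in treated gastrocnemius (SD, n = 3). In quadriceps it stood at 54.1%, 54.1% and 54.3%. The 24-base cassette of Mef2a at chr7:67244521-67244544 took 68.3% ± 3.92, 69.3% ± 2.18 and 69.0% ± 1.59 in gastrocnemius (SD, n = 3) and 69.8%, 71.2% and 71.5% in quadriceps. All of these groups overlapped. The 24-base cassette of Mef2c at chr13:83654598-83654621 was nearly unused, at no more than 0.0046% of the counts of the gene in any library. Such short bins are counted from reads that also cover their neighbours, so these percentages compare libraries and do not give the share of transcripts.

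By gene level the Mef2 factors were ahead of the deacetylases. Per kilobase of exon, the median over the 18 libraries was 45.9 CPM for Mef2d (range 34.2 to 53.3) and 37.0 for Mef2c (26.8 to 54.7), and these ranges overlapped. Mef2a followed at 8.97 (7.08 to 11.4), Hdac4 at 2.56 (1.93 to 5.51) and Hdac9 at 0.552 (0.363 to 1.17), each below the range of the gene before it. No value per kilobase was computed for Hdac7, whose bins in the files come from another version of the gene model. Bin counts are summed here, so a fragment that covers several bins counts more than once, and CPM are relative to the sum of bin counts.

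Gene sums were tested in 1 edgeR quasi-likelihood fit per muscle with Benjamini-Hochberg adjustment over all genes tested. Of the 6 genes, 1 was called for HSA-LR against WT in gastrocnemius and 1 in quadriceps, where 15.5% and 20.3% of all genes were called. For treated against HSA-LR, 1 and 3 were called beside 10% and 13.8% of all genes. For treated against WT, 0 and 1 were called beside 1.04% and 1.41%. The 0 in gastrocnemius stood beside 1 gene with an unadjusted P under 0.05 in edgeR, which was Hdac4, and 1 gene called by DESeq2. The counts of members are too small to set them apart from these backgrounds.

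Mef2c was the gene called in HSA-LR mice in both muscles. It is the family member known for control of sarcomere genes in skeletal muscle. Its level was 546, 565 and 482 CPM in WT gastrocnemius, 810, 833 and 799 CPM in HSA-LR and 539, 567 and 421 CPM in treated gastrocnemius. HSA-LR libraries lay above all others, and the lowest value was that of the treated library with the 3' lean. The increase in HSA-LR was 1.52-fold (log2 0.61 ± 0.12 SE; edgeR, adjusted P = 0.0133) and the decrease with treatment 1.59-fold (log2 -0.67 ± 0.12 SE; edgeR, adjusted P = 0.0171). Treated against WT gave a log2 difference of -0.06 (edgeR, adjusted P = 0.902).

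In quadriceps Mef2c stood at 451, 661 and 548 CPM in WT, 744, 791 and 860 CPM in HSA-LR and 583, 581 and 612 CPM in treated mice. HSA-LR values were again the highest, and the WT values spread around the treated ones. The increase was 1.45-fold (log2 0.54 ± 0.13 SE; edgeR, adjusted P = 0.0270) and the decrease with treatment 1.36-fold (log2 -0.44 ± 0.13 SE; edgeR, adjusted P = 0.0764). The gastrocnemius calls and the increase in quadriceps held without any 1 of the 9 mice, but the decrease in quadriceps was called in 3 of the 9 fits and had an adjusted P of up to 0.198 by edgeR in the others.

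Macrophages and endothelial cells also express Mef2c, and their markers moved in quadriceps. Of 9 macrophage markers tested, 7 rose in HSA-LR quadriceps and 7 fell with treatment, beside 20.3% and 13.8% of all genes called. Their summed level was 54.2 to 77.5 CPM in WT, 99.3 to 133 CPM in HSA-LR and 51.7 to 77.6 CPM in treated quadriceps. In HSA-LR gastrocnemius 2 of the 9 rose beside 15.5% of all genes called, and the sums overlapped at 70.9 to 97.3, 84.5 to 99.6 and 58.2 to 91.9 CPM. Of 11 endothelial markers tested, 7 fell in HSA-LR quadriceps beside 20.3% of all genes called, and 1 fell in gastrocnemius beside 15.5%. Their sum was 385 to 500 CPM in WT, 261 to 316 CPM in HSA-LR and 285 to 432 CPM in treated quadriceps. The treated sums overlapped with both, and 0 of the 11 were called for treated against HSA-LR in quadriceps, beside 13.8% of all genes. The part of these cells in the Mef2c level was not tested, and in such bulk tissue fewer cells of a type and less RNA per cell cannot be told apart.

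**Figure D3:**
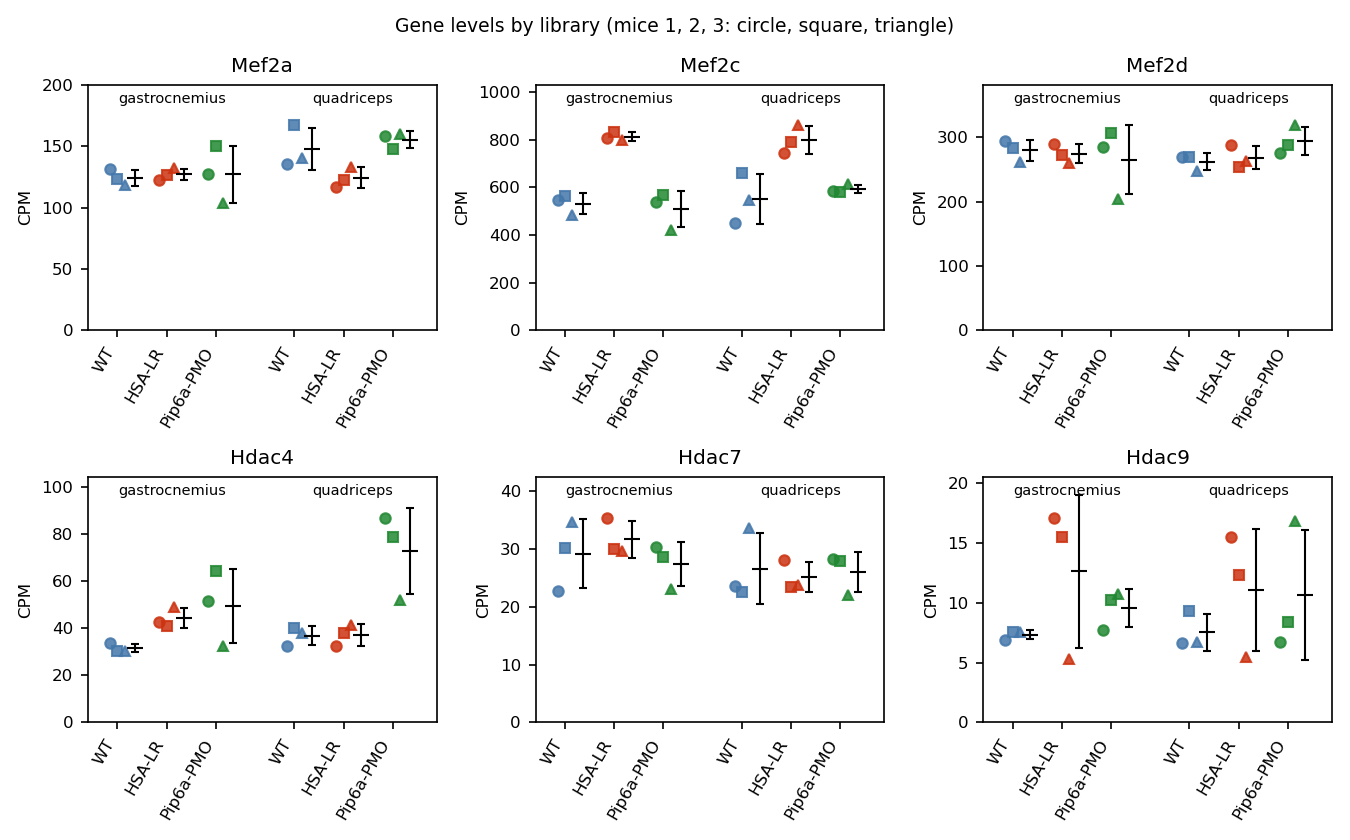
Level of each gene (y axis, CPM from 0) in the 18 libraries by group and muscle; symbols are mice 1, 2 and 3, and the black bar is the mean with its SD (n = 3). Mef2c is highest in the HSA-LR libraries of both muscles (744 to 860 CPM), Hdac4 is highest in 2 of 3 treated quadriceps (87.1 and 79.0 CPM), and Hdac9 is low in both muscles of HSA-LR mouse 3.

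Mef2d, whose exons switched, was not called by gene sum. It ranged from 262 to 294 CPM in WT, 260 to 290 CPM in HSA-LR and 204 to 306 CPM in treated gastrocnemius, and from 247 to 270, 254 to 289 and 277 to 319 CPM in quadriceps. The groups overlapped, except that all treated quadriceps lay above all WT quadriceps, at a log2 difference of 0.17 (edgeR, adjusted P = 0.460). The log2 differences of the 6 comparisons ran from -0.08 to 0.17.

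Mef2a was called once. Its level was 136, 167 and 140 CPM in WT quadriceps, 116, 123 and 134 CPM in HSA-LR and 159, 148 and 160 CPM in treated quadriceps. HSA-LR values were the lowest in that muscle and did not overlap with either other group. Treated against HSA-LR was 1.24-fold higher (log2 0.32 ± 0.097 SE; edgeR, adjusted P = 0.0827), whereas HSA-LR against WT, at a log2 difference of -0.24, had an adjusted P of 0.137 by edgeR. The call was kept in 4 of the 9 fits without 1 mouse. In gastrocnemius Mef2a ranged from 118 to 131, 123 to 132 and 104 to 150 CPM and was not called.

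Hdac4, the class IIa deacetylase that accumulates when muscle is denervated, was called in treated quadriceps and not in treated gastrocnemius. In quadriceps it stood at 32.5, 40.1 and 38.1 CPM in WT, 32.4, 38.1 and 41.5 CPM in HSA-LR and 87.1, 79.0 and 52.2 CPM in treated mice. All treated quadriceps lay above the other 6, which overlapped. The level was 1.94-fold higher in treated than in HSA-LR mice (log2 0.95 ± 0.18 SE; edgeR, adjusted P = 0.0205), a call that held without any 1 of the 9 mice. It was 1.97-fold higher than in WT (log2 0.98 ± 0.18 SE; edgeR, adjusted P = 0.0653), and that call was kept in 3 of the 9 fits.

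In gastrocnemius Hdac4 stood at 33.7, 30.6 and 30.5 CPM in WT, 42.8, 41.0 and 49.0 CPM in HSA-LR and 51.6, 64.2 and 32.7 CPM in treated mice. WT values were lower than those of HSA-LR, and the low treated value came from the library with the 3' lean. HSA-LR against WT had a log2 difference of 0.48 (edgeR, adjusted P = 0.173) and treated against WT 0.65 (edgeR, adjusted P = 0.269). Treated against HSA-LR gave a log2 difference of 0.17 (edgeR, adjusted P = 0.666). Without the library with the 3' lean, the first 2 were 0.49 and 0.87 and both were called (edgeR, adjusted P = 0.0194 and 0.0302). Over the 9 fits without 1 mouse, HSA-LR against WT was called in 2 and treated against WT in 1. The adjusted P rose to 0.383 and 0.559 by edgeR in the others. The log2 change of treated against HSA-LR was 0.79 ± 0.29 SE larger in quadriceps than in gastrocnemius, with an unadjusted P of 0.0149 and an adjusted P of 0.631 by edgeR.

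Slow fiber markers moved in the treated quadriceps too, where 7 of 10 rose against HSA-LR beside 13.8% of all genes called. Their sum was 1155, 2354 and 146 CPM in treated mice 1, 2 and 3, 249, 148 and 117 CPM in HSA-LR and 246, 248 and 660 CPM in WT quadriceps. The 2 treated quadriceps with the higher Hdac4 level were those with the higher slow fiber sum, and treated mouse 3, at 146 CPM of slow fiber markers, still had more Hdac4 than any WT or HSA-LR quadriceps. In gastrocnemius the highest slow fiber sum was 17124 CPM in treated mouse 1, which had 51.6 CPM of Hdac4, less than the 64.2 CPM of treated mouse 2 with a sum of 3692 CPM. Their part in the Hdac4 level was not tested.

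Hdac7 stayed between 22.017 and 35.337 CPM in all libraries, and none of its comparisons was called. Pdgfrb, a pericyte receptor, was the gene whose level followed Hdac7 most closely over the 18 libraries, with a Pearson r of 0.858, and Sema6a came next at 0.857.

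Hdac9 was the member with the fewest counts, and its level split the HSA-LR mice. It is known in muscle mainly as MITR, a short form that ends before the deacetylase domain and still binds MEF2. Its level was 6.90, 7.52 and 7.58 CPM in WT gastrocnemius, 17.1, 15.5 and 5.33 CPM in HSA-LR and 7.76, 10.2 and 10.7 CPM in treated gastrocnemius. Mice 1 and 2 of the HSA-LR group lay above all WT and treated libraries, and mouse 3 lay below them. The quadriceps of the same HSA-LR mice gave 15.5, 12.3 and 5.44 CPM, beside 6.62, 9.28 and 6.69 CPM in WT and 6.73, 8.42 and 16.9 CPM in treated mice. HSA-LR against WT was not called, at log2 differences of 0.78 ± 0.35 SE and 0.56 ± 0.42 SE (edgeR, adjusted P = 0.201 and 0.432). Without HSA-LR mouse 3 the gastrocnemius difference was 1.14 (edgeR, adjusted P = 0.00547) and the quadriceps difference 0.89, which was still not called (edgeR, adjusted P = 0.159). In gastrocnemius this was the 1 call in the 9 fits without 1 mouse, with an adjusted P of up to 0.517 by edgeR in the others. In quadriceps 0 of the 9 fits gave a call.

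The counts along Hdac9, on the minus strand of chromosome 12, fell off after the last exon of the short form at chr12:34371497-34373826. That exon held between 26.8% and 49.8% of the gene counts of a library, with a median of 34.5%. The exons before it, here called front exons, held between 200 and 825 counts per library, and the exons toward the end that encodes the deacetylase domain held between 9 and 116. Per base, the latter were covered at 3.19% to 15.8% of the former in 16 libraries. The other 2 were the gastrocnemius and quadriceps of HSA-LR mouse 3, at 33.8% and 36.8%.

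The 2 libraries differed from those of HSA-LR mice 1 and 2 in the front exons. These held 825, 799 and 209 counts in the gastrocnemius of HSA-LR mice 1, 2 and 3, and 644, 652 and 200 in quadriceps. The domain-end exons held 71, 116 and 71 counts in gastrocnemius and 60, 88 and 74 in quadriceps, all above the 9 to 47 counts of the WT and treated libraries. These exon groups were chosen after the values were seen and were not tested.

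**Figure D4:**
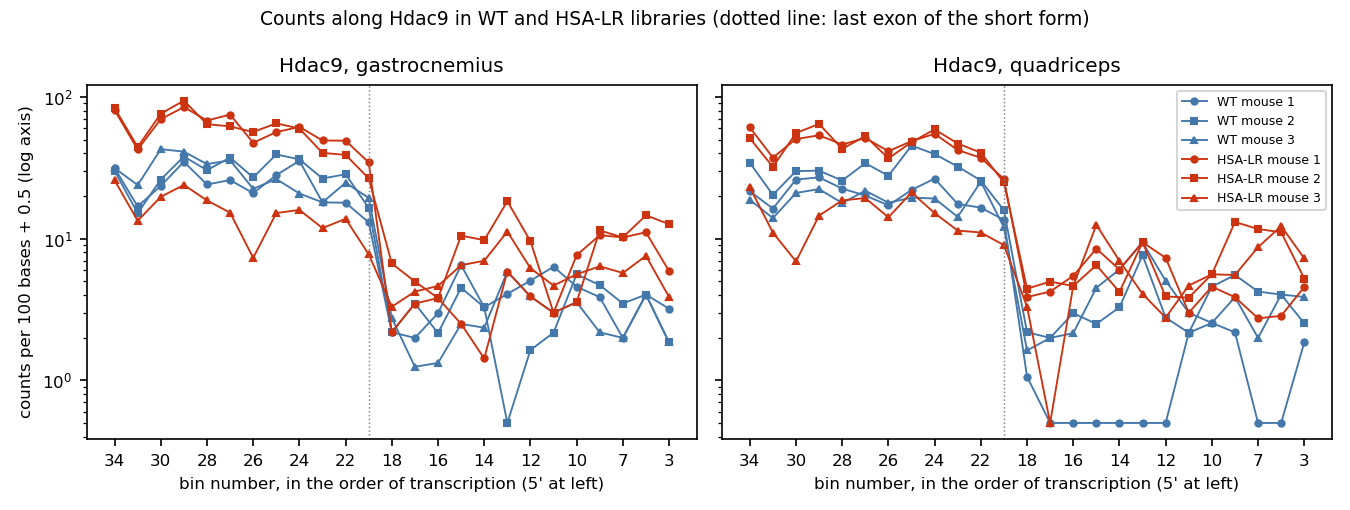
Counts per 100 bases of each Hdac9 bin plus 0.5 (y axis, log scale) in the order of transcription (x axis, bin number) in WT (blue) and HSA-LR (red) mice 1, 2 and 3. All lines drop after the last exon of the short form (dotted, bin 19), but those of HSA-LR mouse 3 rise above it again in some later bins. Examples are bin 13 in gastrocnemius (10.7 against 7.25 per 100 bases) and bin 15 in quadriceps (12 against 8.50), on 6 counts each. The front exons of HSA-LR mouse 3 lie below those of HSA-LR mice 1 and 2 in both muscles (209 against 825 and 799 counts in gastrocnemius).

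The reads at annotated start sites differed in number between genes. The first exon bin at the RefSeq start (GRCm38.p6) of Mef2d at chromosome 3 position 88142372 held 55 to 162 counts per library, that of Mef2a at chromosome 7 position 67372858 held 22 to 92, and that of the Mef2c start at chromosome 13 position 83504034 held 39 to 124. A second Mef2c start, at position 83573607 of chromosome 13, held 0 to 3 counts. For Hdac9 the first exon bin at chromosome 12 position 34528889 held 7 to 59 counts, and that of the far upstream start at position 34917095 held 0 in all 18 libraries. A count of 0 in a single library, taken alone, allows an expected count of up to 3 there. The RefSeq start of Hdac4 at chromosome 1 position 92180341 held 0 to 2.

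Differences between muscles were small for these genes. In a fit over the 18 libraries, edgeR called Mef2a 1.13-fold higher in quadriceps than in gastrocnemius (log2 0.18 ± 0.064 SE, adjusted P = 0.0989), where 13.3% of all genes were called. This call was kept in 1 of 9 fits without 1 mouse, with an adjusted P of up to 0.295 by edgeR. With the mouse as a block, since both muscles of a mouse were sampled, 3 members were called by edgeR: Mef2a at 0.18 (adjusted P = 0.0884), Hdac4 at 0.19 (adjusted P = 0.0729) and Hdac7, lower in quadriceps, at -0.17 (adjusted P = 0.0471), where 21.1% of all genes were called. Without the block, no gene of the 16167 tested, 0%, was called by edgeR for a change that differed between muscles in HSA-LR against WT, in treated against WT or in treated against HSA-LR. At an unadjusted P under 0.05 there were 710, 589 and 1271 genes, and of the 6 members Hdac4 in the last comparison. With the mouse as a block edgeR called 5, 0 and 0 genes (0.0309%, 0% and 0%), none of them a member, with 1384, 1127 and 2257 genes at an unadjusted P under 0.05.

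The kinases that phosphorylate class IIa deacetylases included some of the clearest changes. Of 19 kinase genes tested, 3 rose and 3 fell in HSA-LR gastrocnemius and 4 rose and 3 fell in quadriceps, with a median log2 change of -0.27 and -0.12 beside -0.01 and 0.01 over all genes. The counts of this and the following lists stand beside 15.5% of all genes called in gastrocnemius and 20.3% in quadriceps. Camk1d, a calcium/calmodulin-dependent kinase, went from 2.74 ± 0.585 CPM in WT to 19.01 ± 1.69 in HSA-LR and 3.60 ± 0.290 in treated gastrocnemius (SD, n = 3), and from 2.94 ± 1.16 to 21.7 ± 4.30 and 5.28 ± 0.691 CPM in quadriceps. Its log2 change in HSA-LR was 2.79 and 2.89 (edgeR, adjusted P = 7.57e-05 and 0.000599), and the HSA-LR libraries did not overlap with the others in either muscle.

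Camk2d, a kinase that binds HDAC4 directly, rose by 1.18 in HSA-LR gastrocnemius and by 1.37 in quadriceps (edgeR, adjusted P = 0.000482 and 8.92e-05) and fell by 1.01 and 0.86 with treatment (edgeR, adjusted P = 0.00346 and 0.00205). It held 53.1 to 66.8 CPM in WT, 130.1 to 163.8 CPM in HSA-LR and 59.3 to 85.5 CPM in treated libraries of either muscle. In treated quadriceps it stayed above WT by 0.50 (edgeR, adjusted P = 0.0586). Prkd1, a protein kinase D, rose by 0.98 in HSA-LR gastrocnemius (edgeR, adjusted P = 0.00362), and Camk2b, the muscle form of CaM kinase II, rose by 0.44 in quadriceps (edgeR, adjusted P = 0.0144). In treated gastrocnemius Camk2b lay below all WT values (233.4 to 263.0 against 279.2 to 305.3 CPM). For treated against WT, 1 of the 19 kinase genes was called lower in gastrocnemius and 1 higher in quadriceps, beside 1.04% and 1.41% of all genes.

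**Figure D5:**
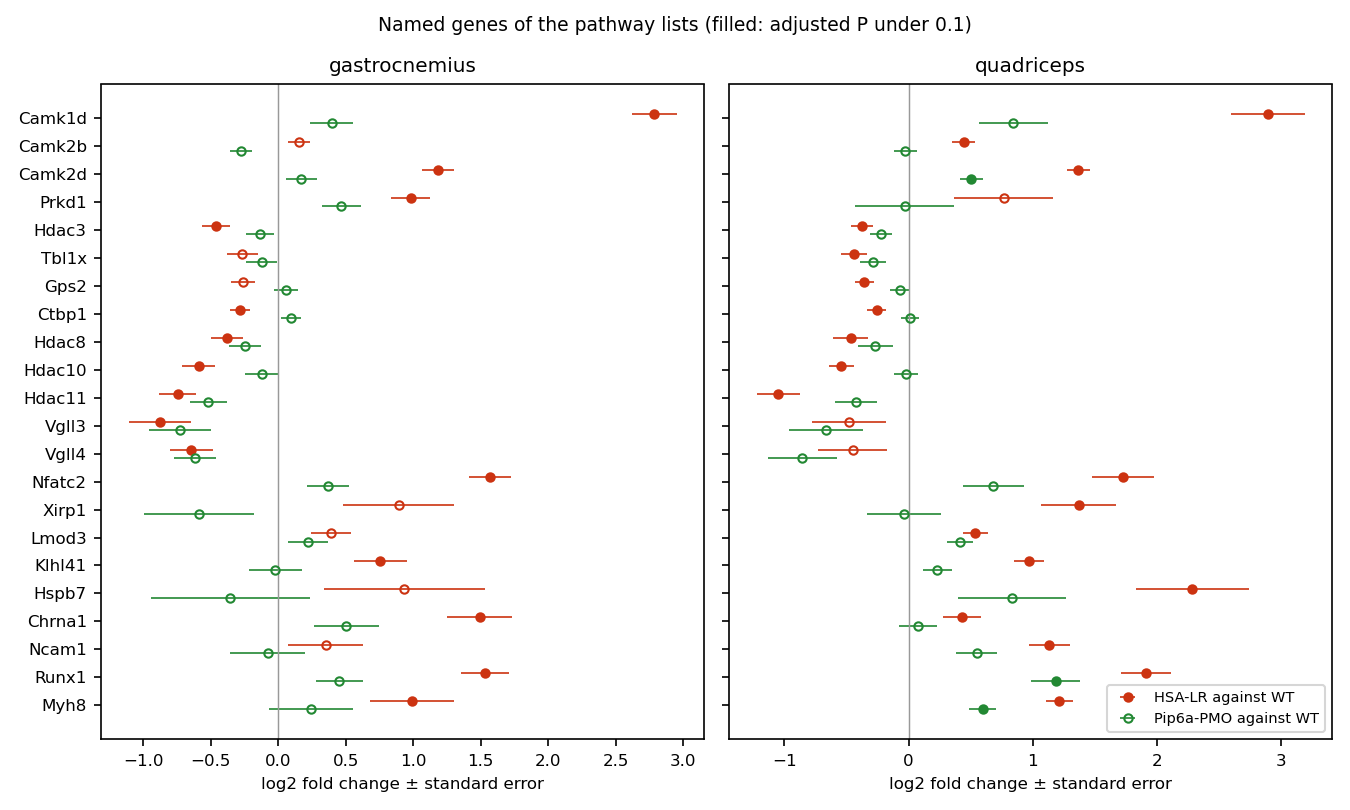
Log2 fold change against WT with its SE (x axis) of the named genes of 6 pathway lists (y axis) in gastrocnemius and quadriceps, for HSA-LR (red) and Pip6a-PMO-treated (green) mice, filled where the adjusted P was under 0.1. Camk1d lies at 2.79 and 2.89 in HSA-LR, Hdac11 at -0.75 and -1.05, and 3 genes (Camk2d, Runx1 and Myh8) are filled in treated quadriceps.

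Other proteins hold class IIa deacetylases outside the nucleus or work with them on DNA. Of 15 genes for 14-3-3 proteins and corepressor partners, 0 rose and 2 fell in HSA-LR gastrocnemius, and 2 rose and 4 fell in quadriceps. The 2 of 15 called in gastrocnemius are close to the 15.5% of all genes called there, so this count is no result about the list. The median log2 change was -0.04 and -0.02 beside -0.01 and 0.01 over all genes. Hdac3, which supplies deacetylase activity to the class IIa complexes, fell by 0.46 and 0.38 (edgeR, adjusted P = 0.0241 and 0.0233), and the corepressor Ctbp1 fell by 0.28 and 0.26 (edgeR, adjusted P = 0.0440 and 0.0516). Tbl1x and Gps2, subunits of the same corepressor complex as Hdac3, fell in quadriceps by 0.44 and 0.36 (edgeR, adjusted P = 0.0270 and 0.0188).

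Deacetylases outside class IIa that were called were all lower in HSA-LR mice. Of 10 such genes, the same 4 fell in both muscles and 0 rose, with a median log2 change of -0.20 and -0.18. Besides Hdac3 they were Hdac8, at -0.38 and -0.46 (edgeR, adjusted P = 0.0765 and 0.0597), Hdac10, at -0.59 and -0.54 (edgeR, adjusted P = 0.0165 and 0.00876), and Hdac11, at -0.75 and -1.05 (edgeR, adjusted P = 0.0101 and 0.00579). Hdac10 rose again with treatment in both muscles, by 0.47 and 0.52 (edgeR, adjusted P = 0.0614 and 0.0198). Treated Hdac11 stayed below all WT values, at 5.75 to 6.62 against 7.69 to 10.4 CPM in gastrocnemius and 5.06 to 7.89 against 8.82 to 9.23 CPM in quadriceps. So did treated Hdac3 (74.2 to 86.9 against 89.4 to 100.3 CPM) and Hdac8 (3.91 to 4.40 against 4.54 to 5.82 CPM) in quadriceps. In gastrocnemius these 2 overlapped with WT. For treated against WT, 0 of the 10 were called in either muscle.

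Among 19 cofactors and regulators of MEF2, 1 rose and 2 fell in gastrocnemius and 1 rose and 0 fell in quadriceps, with a median log2 change of -0.03 and -0.10. The 3 called in gastrocnemius are close to the 15.5% of all genes called there. The 1 called in quadriceps is below the 20.3% of all genes called there, so neither count is a result about the list. Nfatc2, a calcineurin-dependent factor that acts beside MEF2, rose by 1.57 and 1.72 (edgeR, adjusted P = 0.000475 and 0.00309) and fell by 1.198 and 1.04 with treatment (edgeR, adjusted P = 0.00404 and 0.0402). The Vestigial-like cofactors Vgll3 and Vgll4 fell in gastrocnemius by 0.88 and 0.64 (edgeR, adjusted P = 0.0416 and 0.0322).

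Muscle genes known as MEF2 targets moved in both directions. Of 28 tested, 4 of which are also slow fiber markers, 4 rose and 1 fell in HSA-LR gastrocnemius, and 8 rose and 2 fell in quadriceps. The 5 of 28 called in gastrocnemius are close to the 15.5% of all genes called there, so this count is no result about the targets. The median log2 change was 0.08 and 0.06 beside -0.01 and 0.01 over all genes. Klhl41, a regulator of sarcomere assembly, rose by 0.76 and 0.97 (edgeR, adjusted P = 0.0417 and 0.00150) and fell by 0.78 and 0.74 with treatment (edgeR, adjusted P = 0.0576 and 0.0115). In quadriceps the actin-binding genes Xirp1 and Lmod3 rose by 1.37 and 0.54 (edgeR, adjusted P = 0.0187 and 0.0111) and the small heat shock gene Hspb7 by 2.29 (edgeR, adjusted P = 0.0124). Treated quadriceps lay above all WT values for Lmod3 (86.4 to 104.3 against 67.3 to 78.9 CPM) and Klhl41 (513 to 532 against 401 to 484 CPM). Treated and WT values overlapped for Xirp1 and Hspb7. For treated against WT, 0 of the 28 were called in either muscle. Of 10 fast fiber markers, 5 fell in HSA-LR quadriceps, and their part in the level of the targets was not tested.

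Of 17 genes of the HDAC4 and denervation axis, 6 rose and 0 fell in HSA-LR gastrocnemius, and 5 rose and 1 fell in quadriceps, with a median log2 change of 0.13 and 0.23. Runx1, a transcription factor induced on denervation, rose by 1.53 and 1.91 (edgeR, adjusted P = 0.00103 and 0.000678). Chrna1, the alpha subunit of the acetylcholine receptor, rose by 1.49 and 0.43 (edgeR, adjusted P = 0.00571 and 0.0959), the perinatal myosin gene Myh8 by 0.99 and 1.21 (edgeR, adjusted P = 0.0782 and 0.000325), and the adhesion gene Ncam1 in quadriceps by 1.13 (edgeR, adjusted P = 0.00321). With treatment Runx1 and Myh8 fell in quadriceps, by 0.73 and 0.62 (edgeR, adjusted P = 0.0560 and 0.0154), and stayed above WT by 1.18 and 0.60 (edgeR, adjusted P = 0.0449 and 0.0575). Of 7 neuron and Schwann cell markers tested in quadriceps, 4 fell in HSA-LR mice and 3 rose with treatment, beside 20.3% and 13.8% of all genes called.

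Over the 18 libraries the levels of the members were followed most closely by genes of many kinds, given here as a description with Pearson r of log2 CPM, in which groups and muscles are pooled. Mef2c was followed by Phtf2 (r = 0.958) and Gm8424 (r = 0.949), and Mef2a by Trappc8 (r = 0.943) and Usp45 (r = 0.915). Mef2d was followed by Cand2 (r = 0.866), a ubiquitin ligase exchange factor of muscle, and Polr2a (r = 0.836), the large subunit of RNA polymerase II. Hdac4 was followed by Ap1g1 (r = 0.895) and Chd9 (r = 0.886), and Hdac9 by Hs3st5 (r = 0.879) and Mta2 (r = 0.862).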

How the data were processed

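PolyA-selected, stranded RNA-seq libraries of 2 muscles from 3 mice per group were analysed as read counts per exon bin, which the authors deposited as raw counts with 391858 bins per library. The submitters' processing notes name CASAVA, HISAT, featureCounts 1.5.0 and build GRCm38. A fragment that covers several bins counts in each, so neighbouring bins are not independent. Gene sums add the bins of a gene. Bins that name no gene held 2.82% to 4.14% of counts and were left out. Library totals ran from 98916844 to 143135976, so counting error is small except in low bins.

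Genes with a minimum count of 10 and a minimum total of 15 (filterByExpr) were scaled by TMM and tested with the quasi-likelihood test of edgeR 4.0.16 in R 4.3.3, in a single fit for each muscle that held its 9 libraries. For bins, the package's diffSpliceDGE function was used. P values were adjusted by Benjamini-Hochberg over all features of a muscle and called under 0.1. Exon shares were compared by 2-sided exact permutation tests over mice. Differences between muscles were tested over 18 libraries. The labels give mice, not cultures or litters, as replicates. Simulated bins gave more false calls than the nominal rate, and simulated gene sums did not.

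Replicate numbers across groups did not pair libraries: deviations from group means correlated at a median of 0.0013 over 18 pairs. Both muscles of a mouse did (median 0.215, lowest 0.0645, 9 pairs), so a fit with the mouse as a block was added for differences between muscles. Alternatives were DESeq2 1.42.0, limma-voom 3.58.1, other scalings and filters, fits of 2 groups, and leaving out each mouse. Hdac5 was not analysed here. Hdac7 bins followed another version of the gene model than GENCODE M21, so no positions are given for it. The members and gene lists were chosen with earlier results of these data known. Named genes were the members and, from each pathway list, up to 4 genes of smallest P among those called in HSA-LR against WT, plus for each member the 2 genes of highest correlation. The exon parts of Hdac9 and the cell types beside Mef2c and Hdac4 were singled out after the values were seen. The sequence of 1 exon is not reported here.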

Additional observations from a re-analysis of the deposited data

How the results depend on the processing

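The shifts in the upstream share of the Mef2d and Mef2c pairs kept their direction and their lack of overlap in all alternatives tried. Without 1 mouse, HSA-LR minus WT for Mef2d was 28.31 to 34.63 percentage points in gastrocnemius and 31.2 to 34.83 in quadriceps. For Mef2c it was 18.93 to 23.22 and 19.82 to 24.5. With the longest bin of each exon alone, an alternative chosen after seeing the data, Mef2c differed by 21.59 and 22.3. Counts of calls moved more, and the cause was not tested. For treated against HSA-LR, limma-voom called 3 bins in gastrocnemius and 5 in quadriceps, and an offset from the other bins gave 6 in quadriceps. By gene sum, HSA-LR against WT gave 2 members in gastrocnemius with 2 groups only, and 2 in quadriceps with DESeq2 or the largest bin. Treated against WT gave 1 in gastrocnemius with DESeq2, and in quadriceps 0 with 2 groups only and 0 with the replicate number as a block. That block left all other counts within 1.5 times, at 6, 0 and 6 bins in gastrocnemius and 6, 0 and 4 in quadriceps for HSA-LR against WT, treated against WT and treated against HSA-LR. Between muscles, the mouse as a block gave 3 members and upper-quartile scaling 0.

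Without 1 mouse, bins called ran from 5 to 7 and 1 to 7 for HSA-LR against WT, and from 2 to 7 and 1 to 4 for treated against HSA-LR, in gastrocnemius and quadriceps. Members called ran from 1 to 2 for HSA-LR against WT and for treated against HSA-LR in gastrocnemius, from 1 to 3 for treated against HSA-LR in quadriceps, from 0 to 1 for treated against WT in both muscles, and from 0 to 1 between muscles. Treated against WT changed sign for the Hdac7 bin in gastrocnemius (-0.45 to 0.52) and for Hdac9 in quadriceps (-0.0017 to 0.75, lowest without treated mouse 3). Among values of single genes and bins, 770 kept their direction and side of the threshold, 85 lost a call and 20 gained one. Low counts limit the Mef2c cassette (0 to 5 per library), the Hdac7 bin and the Hdac9 exons toward the deacetylase domain.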
